A study of Mus musculus with 6 samples.

Results

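Acetylated stretches of chromatin that lie between genes, but not far from them, were described in nuclei of mouse heart muscle cells. They were 6624 regions, 14.7% of the 45032 regions on chromosomes 1 to 19 that had a peak of acetylated histone H3 lysine 27 (H3K27ac) in at least 2 of 6 libraries. All overlapping peaks of the 6 lists together made 112705 regions. A region was kept when it overlapped no protein-coding gene of RefSeq and lay more than 1 kb and at most 50 kb from the nearest end of one. It is called an intergenic region here, although 1759 of the 6624 (26.6%) overlapped a noncoding gene, for 1504 of them a long noncoding RNA. The other recurrent regions were 9161 within 1 kb of a gene end, 25266 inside genes and 3981 more than 50 kb away. The regions were chosen by the presence of peaks in these same libraries and by position, so the number of libraries per region is given as a description.

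The study profiled H3K27ac by CUT&RUN, in which an antibody directs a nuclease to cut out the chromatin it binds, in nuclei sorted from left ventricle with an antibody to PCM-1, a protein of the cardiomyocyte nuclear surface. Mice were of the FVB strain and 8 to 12 weeks old. There were 3 wild-type libraries (WT) and 3 libraries of the group labelled HOM, with a CRISPR deletion of Nppa and Nppb, the adjacent genes that encode the atrial and B-type natriuretic peptides. No treatment is given in the labels. They name Myh6-MerCreMer, nTnG and Sun1/sfGFP reporter mice on an FVB/N background without tying them to a library. They do not say whether the 3 libraries of a group came from separate mice, so the tests below measure the spread between libraries, which may be technical.

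H3K27ac is placed by the acetyltransferases p300 and CBP and marks active promoters and enhancers. Enhancers are stretches of DNA, often outside genes, that bind transcription factors and raise transcription of a gene that can lie some distance away. In heart muscle, enhancers bound by GATA4, NKX2-5, MEF2, TBX5 and TEAD factors are known to drive genes of contraction and metabolism. The nearest gene of an enhancer is not always the gene it acts on, so nearest genes are given here as positions only.

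Genes of microRNAs, short RNAs that pair with messenger RNAs through a seed of bases 2 to 8, lay beside some of the regions. Of 919 autosomal microRNA hairpins in the RefSeq table used here (GRCm38.p6), 140 lay outside protein-coding genes at 1 to 50 kb from the nearest one. An intergenic region came within 2 kb of 22 hairpins, 21 of them among those 140, and 4 hairpins were overlapped. The mature sequences below, 5′ to 3′ and from RefSeq, are shown because 5 of these hairpins give let-7 RNAs with one seed. Capitals mark the seed.
let-7a-5p: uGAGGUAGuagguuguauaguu
let-7b-5p: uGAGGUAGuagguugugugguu
let-7c-5p: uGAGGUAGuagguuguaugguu
let-7f-5p: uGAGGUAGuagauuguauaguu
let-7i-5p: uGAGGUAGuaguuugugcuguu
The let-7i hairpin, chr10:122985640-122985724, lay inside a region of 2222 bp near Mon2. That region had a peak in WT replicates 2 and 3 and HOM replicate 1. The let-7c-2 hairpin lay 38 bp and the let-7b hairpin 754 bp from a region of 1287 bp on the flank of Ppara. It had a peak in the 3 WT libraries and in 0 HOM libraries. The hairpins of let-7a-1 and let-7f-1, near Zfp169, lay 409 and 764 bp from a region of 306 bp that had a peak in WT replicates 2 and 3 only. Of the remaining hairpins, the ones below belong to microRNAs with known roles in heart or in low oxygen, and miR-29b and miR-29c again share a seed.
miR-29b-3p: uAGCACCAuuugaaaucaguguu
miR-29c-3p: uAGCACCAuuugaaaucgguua
miR-22-3p: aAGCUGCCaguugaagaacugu
miR-210-3p: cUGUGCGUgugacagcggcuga
The miR-29b-2 and miR-29c hairpins lay 1481 and 1988 bp from a region of 1381 bp near Cd46, with a peak in WT replicates 2 and 3 and HOM replicate 3. A region of 1751 bp near Tlcd2 lay 602 bp from the hairpin of miR-22, a microRNA abundant in heart muscle. It stood at fold percentiles of 92.4 and 93.0 in WT replicates 2 and 3 and 86.3 in HOM replicate 1, where a fold percentile is the rank, from 0 to 100, of a peak's fold enrichment among all peaks of its library. A region of 280 bp lay nearer to the miR-22 hairpin, at 188 bp. It had a peak in WT replicates 2 and 3 only, at percentiles of 44.6 and 91.7. The hairpin of miR-210, which low oxygen induces, lay 94 bp from a region near Rassf7 with a peak in WT replicates 2 and 3. None of these regions had a peak in HOM replicate 2.

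The lists differed widely in length. They held 21340, 72362 and 106605 peaks in WT replicates 1 to 3, against 48102, 1462 and 15184 for HOM replicates 1 to 3. No read counts are in them, so depth is unknown. As a check of the labels, the interval from Nppb to Nppa (147985786 to 148002074 of chromosome 4) had 1, 2 and 4 peaks in the WT lists and 0 in each HOM list. HOM replicate 2 had 0 peaks in the 250 kb on each side as well, so its empty interval checks nothing, while the other 2 HOM lists had 71 and 30 there. WT replicate 1 had 27 peaks there and only 1 in the interval, so the 0 of HOM replicate 3 checks little. A recurrent region lay within 1 kb of an end of 24 of 25 contractile genes, 18 of 20 calcium handling genes and 19 of 24 cardiac transcription factors. The counts were 0 of 13 endothelial, 0 of 12 fibroblast, 3 of 10 smooth muscle and pericyte and 2 of 12 immune markers. For genes of other organs the count was 1 of 20. Of all 20665 protein-coding genes 6825 had such a region. These lists were chosen with results of these data known.

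Intergenic regions with a peak numbered 2058, 5910 and 6373 in WT replicates 1, 2 and 3. In HOM replicates 1, 2 and 3 they numbered 3835, 237 and 1604. The order followed the lengths of the lists. Regions called in the 2 longest lists alone were the most frequent combination: 2224 (33.6%) had a peak in WT replicates 2 and 3 only, beside 35.6% of all recurrent regions. Another 834 (12.6%) had a peak in every library but HOM replicate 2, beside 11.4%, and 151 (2.28%) had one in all 6 libraries, beside 1.32%. Without WT replicate 2 there were 4506 regions and without WT replicate 3 there were 4720.

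**Figure D1:**
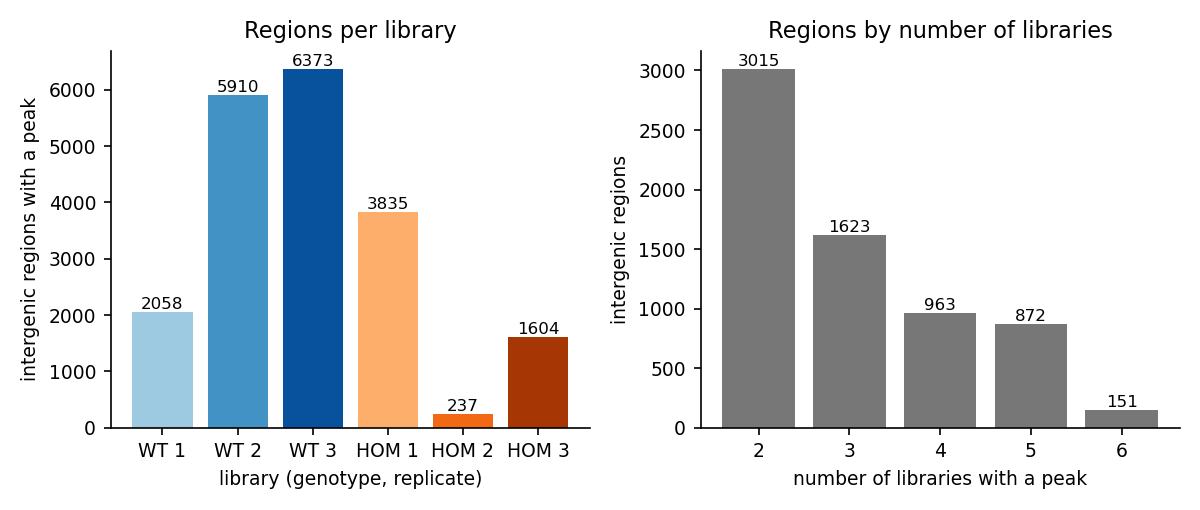
Left, bars give the number of intergenic regions with a peak in each library (WT 1 to 3 in blue, HOM 1 to 3 in orange); right, bars give the number of regions by the number of libraries with a peak. The lowest count is 237 (HOM replicate 2) and the highest 6373 (WT replicate 3), and 3015 of the 6624 regions had a peak in only 2 libraries.

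Regions seen in more libraries were wider and stood higher in their lists, up to 5 libraries. Median width was 414, 700, 1125 and 1837 bp for regions with a peak in 2, 3, 4 and 5 libraries. It was 1181 bp for the 151 regions in all 6. The mean fold percentile over the libraries with a peak had medians of 45.5, 58.1, 67.0, 78.0 and 80.7 in the same order. Since width grows when peaks of more libraries are joined, these are descriptions of how the regions were made. Over all regions the median width was 632 bp, with quartiles of 385 and 1133 bp and a highest value of 13079 bp.

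The regions came in groups. Of 4269 gaps between neighbouring regions in one stretch between genes, the median was 539 bp, 20.3% were at most 100 bp and 84.9% at most 10 kb. Joined over gaps of up to 10 kb, the regions formed 1569 singles and 1430 clusters of 2 or more, which held 5055 regions. There were 259 clusters of 5 or more and 34 of 10 or more, the latter with 685 regions. The largest, with 52, 36, 35, 34 and 34 regions, lay beside Speer genes or predicted genes. At similar copies such as the Speer genes, peaks are uncertain where reads fit several copies. Gaps depend on how peaks are joined: with peaks up to 100 bp apart joined, the median gap was 1196.5 bp.

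Clusters also lay beside heart genes. The stretch between Nkx2-5, a transcription factor of heart formation, and Kifc5b held a cluster of 18 regions over 46954 bp. Of these, 7, 16 and 17 had a peak in WT replicates 1 to 3, against 14, 0 and 6 for HOM replicates 1 to 3. Beyond the end of Dysf, the gene of the membrane repair protein dysferlin, 15 regions spanned 37821 bp, with 7, 15 and 14 called in WT and 10, 2 and 7 in HOM. Beside Lmod3, a nucleator of actin filaments in muscle, lay 15 regions with 3, 14 and 15 called in WT and 8, 0 and 6 in HOM. Adrb1, the beta-1 adrenergic receptor, had a cluster of 13 with 6, 13 and 13 in WT and 9, 0 and 5 in HOM. At all 4, WT replicates 2 and 3 and HOM replicate 1, the longest lists, held the most. Noncoding genes were overlapped by 15 of the 18 regions beside Nkx2-5 and 12 of the 15 beside Lmod3. They were overlapped by 8 of the 13 beside Adrb1 and 0 of the 15 beside Dysf.

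Other clusters also lay in part or in whole inside noncoding genes. Malat1 and Neat1 are nuclear long noncoding RNAs, the second of which builds paraspeckles. Within Neat1 there were 14 regions, with a peak in 0, 14 and 14 of them in WT and 5, 0 and 4 in HOM. Malat1 itself held 3. All 14 regions of the cluster between Gata4, a zinc finger factor of heart cells, and Blk lay in Gm4151, a noncoding transcript. The nearest protein-coding gene was Gata4 for 4 of them and Blk for 10. In WT 2, 13 and 14 of them had a peak, and in HOM 6, 0 and 1. Beside Hopx, a homeodomain protein without DNA binding, lay 9 regions, 2 of them in Chaer1, a heart long noncoding RNA, and both of these had a peak in the 3 WT libraries and HOM replicate 1. Beside Chd2, a chromatin remodeller, lay 15 regions, and Chaserr, a long noncoding RNA next to Chd2 known to restrain it, held 5. Nearly all of these regions were called in WT replicates 2 and 3.

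**Figure D2:**
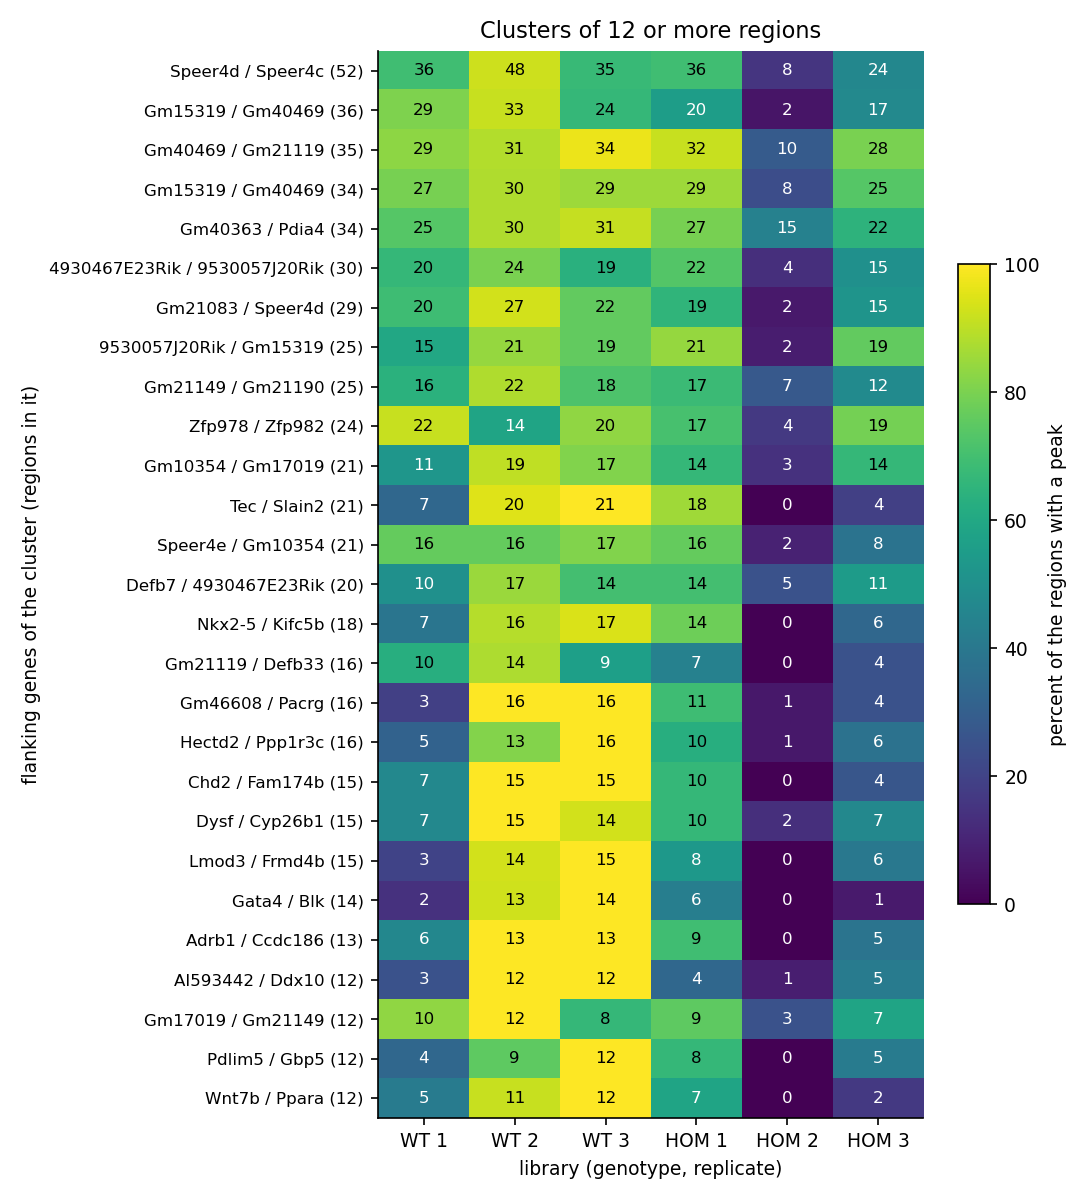
Each row is a cluster of 12 or more intergenic regions (1 such cluster is left out), named by its flanking genes with its number of regions, and each column a library. Numbers give the regions with a peak, and colour gives their percent. At Speer4d / Speer4c, WT replicate 1 and HOM replicate 3 had a peak in 36 and 24 of 52 regions, and at Gata4 / Blk in 2 and 1 of 14.

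Over all libraries together the density of intergenic regions was highest close to genes, but the difference did not pass the test over libraries. Counted against the sequence available at each distance, there were 14.0 regions per Mb at 1 to 5 kb, 12.8 at 5 to 10 kb, 11.7 at 10 to 20 kb and 10.9 at 20 to 50 kb. The log2 ratio of the nearest to the farthest of these bands was 0.13, 0.30 and 0.36 in WT replicates 1 to 3, against 0.28, -0.08 and 0.08 for HOM replicates 1 to 3. Its mean was 0.18 ± 0.165 (SD, n = 6), higher in 5 libraries and lower in 1, with a two-sided exact sign-flip permutation p of 0.0625 (the smallest possible is 0.031). The mean depended on which peaks were used: it was 0.05 over the stronger 50% of each list, turned to -0.09 with a −log10 q of at least 5, to -0.02 over 5 libraries at equal length, and to -0.38 (exact p = 0.031) with every list limited to the length of the shortest. Over regions that overlap no RefSeq gene of any type it passed the threshold, at 0.30 (exact p = 0.031). The sequence available was still counted outside protein-coding genes only, with noncoding genes left in. That ratio is therefore not a density over matched sequence, and no conclusion is drawn from it. By side of the gene, there were 12.1 regions per Mb on the 5′ side and 11.8 on the 3′ side, a difference that was not tested, over the 5163 regions whose nearest gene had a strand in the table used.

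**Figure D3:**
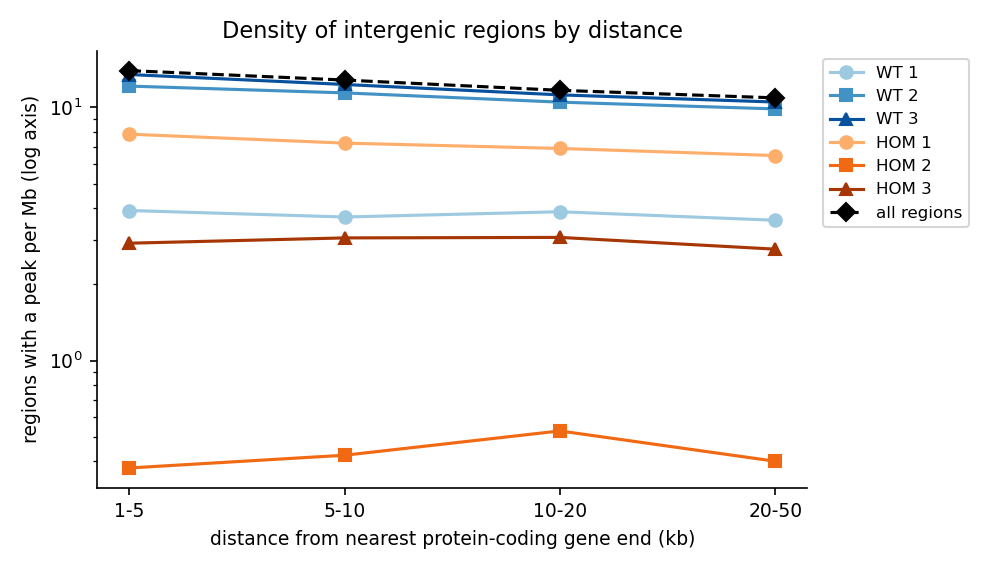
Intergenic regions with a peak per Mb of available sequence (log axis) against distance from the nearest protein-coding gene end in kb, one line per library and a dashed line for all regions. WT replicates 2 and 3 and HOM replicate 1 fall from left to right, and HOM replicate 2 does not.

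The authors' fold enrichment was ranked within each library and compared between classes of regions by its median. Over all peaks inside intergenic regions the median percentile was 55.6, 57.5 and 72.9 in WT replicates 1 to 3, against 46.6, 56.6 and 61.8 for HOM replicates 1 to 3. Against gene-end regions the mean difference was 4.57 percentile points (SD 15.6, n = 6; exact permutation p = 0.5, adjusted 0.75), higher in 2 libraries and lower in 2, and it was -0.93 (exact p = 1) without the regions that held a HOM replicate 2 peak. Against regions inside genes it was 5.30 (SD 8.89; exact permutation p = 0.5, adjusted 0.75), higher in 2 and equal in the others. Against regions beyond 50 kb it was -5.72 (SD 8.98; exact permutation p = 0.5, adjusted 0.75), lower in 2 libraries. Without the regions that held a HOM replicate 2 peak, the last 2 differences were 1.20 and 0. The p-values were adjusted over 6 comparisons of classes. Peak width, on a log2 scale, differed from that of the 3 classes by 0.005, -0.005 and -0.07 in the same order, with adjusted exact permutation p-values of 0.97, 0.97 and 0.56. Fold takes few distinct values, and the medians were tied in 2, 4 and 4 of the 6 libraries in that order, so the smallest p these fold tests could give was 0.125, 0.5 and 0.5. They therefore do not show that fold was alike. With the mean percentile in place of the median, an alternative chosen after seeing the data, the differences were 3.71, 2.96 and -3.95, with exact permutation p-values of 0.47, 0.031 and 0.0625, adjusted to 0.70, 0.19 and 0.19.

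**Figure D4:**
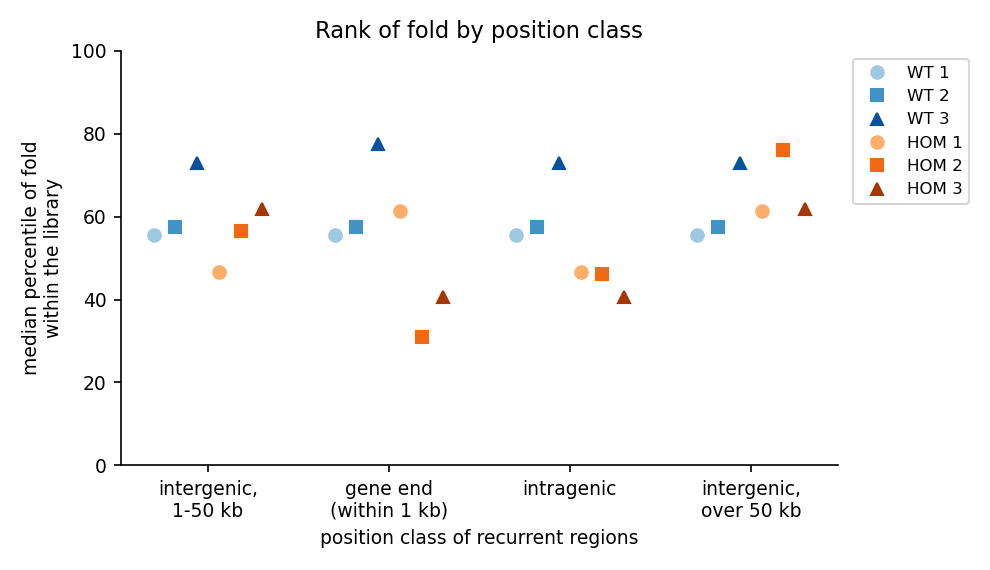
Each point is the median within-library percentile of the authors' fold over peaks of 1 library in recurrent regions of 1 position class. The points of intergenic regions at 1 to 50 kb lie between 46.6 and 72.9, a range that overlaps those of the other classes.

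The 6624 regions had 2599 protein-coding genes as nearest gene, 12.6% of 20665. Of these genes, 1388 were nearest to 2 or more regions, 335 to 5 or more and 50 to 10 or more. Genes with an intergenic region nearby included a larger share with peaks at their own ends. A recurrent region lay within 1 kb of an end of 33.0% of all genes. That share was 56.3% among the 2599 genes, 29.7% among the others, 67.8% among genes nearest to 3 or more regions and 77.3% among those nearest to 5 or more. Both counts rest on the same libraries, so the link is given as a description.

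In each list of heart muscle, energy metabolism or stress genes, called the heart lists here, the share of genes nearest to an intergenic region lay above that of all genes. The metabolism and stress lists were not chosen as markers of heart muscle cells. At least 1 region was nearest to 14 of 25 contractile genes, 10 of 20 calcium handling and channel genes and 17 of 24 cardiac transcription factors. The counts were 10 of 22 for fatty acid and energy metabolism, and 16 of 25 for stress, hypertrophy and early response. For all genes the share was 12.6%. Markers of other cells lay closer to that share: 3 of 13 endothelial, 2 of 12 fibroblast, 2 of 10 smooth muscle, 3 of 12 immune genes and 2 of 20 genes of other organs. Against the sequence that was nearest to each list's genes, there were 61.8, 52.4, 62.8, 67.3 and 43.1 regions per Mb in the heart lists, in the order above. All genes had 12.0 per Mb, and the lists of other cells 11.9, 13.0, 32.2, 9.69 and 7.24.

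The lists were chosen with results of these data known, and no test is given for them. Without HOM replicate 2 the counts of genes were the same in all 10 lists. Over 5 lists of equal length, HOM replicate 2 not among them, 5.93% of all genes were nearest to a region. The heart lists then had 7 of 25, 7 of 20, 14 of 24, 9 of 22 and 8 of 25 genes, and the lists of other cells 0 of 13, 2 of 12, 2 of 10, 2 of 12 and 1 of 20. By flanking gene on either side within 50 kb in place of the nearest gene, the heart lists had 16, 10, 17, 12 and 20 genes, and the lists of other cells 4, 2, 4, 4 and 3, against 3492 of all 20665.

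**Figure D5:**
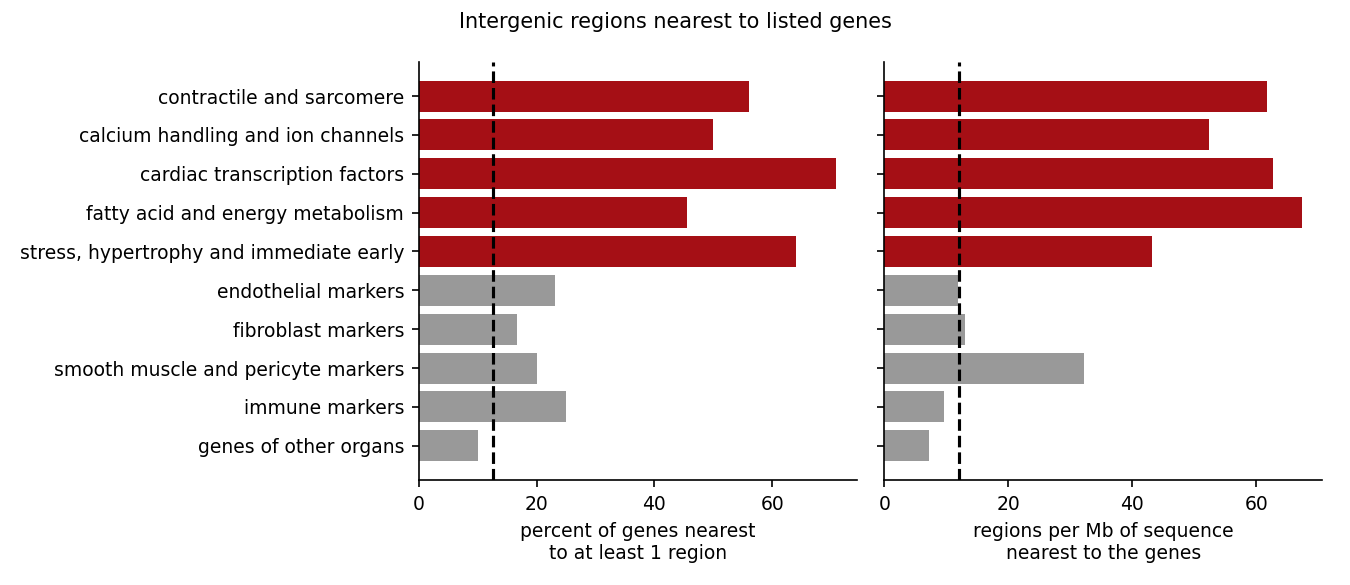
Bars give, for each gene list, the percent of its genes that were nearest to at least 1 intergenic region (left) and the regions per Mb of sequence nearest to those genes (right). Red bars are the heart lists, which include energy metabolism and stress genes, and grey bars are markers of other cells and organs. Dashed lines mark all protein-coding genes at 12.6% and 12.0 per Mb. All 5 red bars pass the line in both panels.

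Among contractile genes, Fhl2, a LIM-domain protein of the sarcomere, was nearest to 8 regions. Of these, 2, 7 and 8 had a peak in WT replicates 1 to 3, against 4, 0 and 2 for HOM replicates 1 to 3. Actc1, the cardiac actin of the thin filament, was nearest to 7 regions at 1402 to 19215 bp, with 2, 7 and 7 called in WT and 4, 0 and 2 in HOM. Csrp3, the muscle LIM protein of the Z-disc, had 5 regions, of which 1, 4 and 5 were called in WT and 4, 0 and 0 in HOM. At all 3 genes WT replicate 3 called every region and HOM replicate 2 called none.

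Among genes of ion transport, Slc8a1, the sodium-calcium exchanger, was nearest to 8 regions, with 2, 8 and 8 called in WT and 7, 0 and 2 in HOM. Atp2a2, the calcium pump of the sarcoplasmic reticulum, was nearest to 7, with 3, 7 and 7 in WT and 7, 0 and 3 in HOM. At Slc8a1 and Atp2a2, HOM replicate 1 came within 1 region of the 2 longest WT lists.

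Transcription factors carried the most regions of any list, 95. Nkx2-5 was nearest to 14, of which 5, 12 and 14 were called in the WT lists and 10, 0 and 5 in the HOM lists. Ppara, a nuclear receptor that drives genes of fatty acid oxidation, was nearest to 14 as well, with 5, 13 and 14 in WT and 8, 0 and 2 in HOM. Hand2, a bHLH factor of the right ventricle and neural crest, had 12 regions at 6890 to 36546 bp, with 5, 10 and 11 in WT and 9, 0 and 2 in HOM. Their highest peaks stood at percentiles of 98.3, 97.6 and 99.6 in WT replicate 3 and 98.5, 86.3 and 90.4 in HOM replicate 1, for Nkx2-5, Ppara and Hand2.

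In metabolism, Mb, the oxygen store myoglobin, and Idh2, a mitochondrial isocitrate dehydrogenase, were each nearest to 7 regions. Lpl, the lipase that frees fatty acids from lipoproteins, was nearest to 6. The 7 regions of Idh2 had 3, 7 and 7 peaks in WT and 4, 0 and 3 in HOM. Its highest peak stood at 98.5 in HOM replicate 3, the highest percentile in that library of the 3 genes. Among stress and early response genes, Ccn1, a secreted matrix protein and target of YAP and TEAD, was nearest to 8 regions, Gadd45g, a growth arrest gene, to 7 and Fos, a subunit of AP-1, to 6. Of the regions of Fos, 5, 6 and 6 were called in the WT lists and 4, 0 and 2 in the HOM lists, so WT replicate 1 missed 1 of them.

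Markers of other cells had few regions. Kdr, the endothelial receptor of VEGF, was nearest to 3, called in 0, 3 and 3 cases in WT and 1, 0 and 0 in HOM. The regulator Erg and the secreted protein Egfl7 were nearest to 2 each. Of fibroblast genes, Dpt, which encodes dermatopontin of the matrix, was nearest to 6 and Postn, periostin, to 4, the latter at 43158 to 45777 bp. Notch3, a receptor of vascular smooth muscle, had 5 and Acta2, smooth muscle actin, 2. The T cell gene Cd3e, the myeloid integrin Itgam and Laptm5 of blood cells were nearest to 1 region each, the neuronal gene Snap25 to 3 and the liver gene Ttr to 2. Summed over the endothelial list, 0, 5 and 7 regions were called in WT and 4, 0 and 0 in HOM. In each of the 5 lists of other cells HOM replicate 2 had a peak in 0 of the regions. It also had 0 in the contractile and calcium handling lists, and 1 each in the transcription factor, metabolism and stress lists. Summed over the 5 lists of other cells, the genes with regions were 12, and whether their regions come from other cells in the sorted nuclei was not tested.

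Peaks at the start sites of leading genes varied. The windows of Irf2bpl, Slc16a1 and Klf15 were overlapped by a peak in 1 library each, those of Ppara, Hand2, Mef2d, Idh2 and Ccn1 in 2, and one window each of Mb and Fhl2 in 0. The 250 bases before an annotated transcript start are shown for Nkx2-5, Actc1 and Slc8a1, 5′ to 3′ on the gene's strand, from RefSeq in build GRCm38.p6, because these were among the windows with a peak in the most libraries, 5, 5 and 4. Capitals mark a match to a motif.
Nkx2-5, chr17:26841566-26841815, minus strand: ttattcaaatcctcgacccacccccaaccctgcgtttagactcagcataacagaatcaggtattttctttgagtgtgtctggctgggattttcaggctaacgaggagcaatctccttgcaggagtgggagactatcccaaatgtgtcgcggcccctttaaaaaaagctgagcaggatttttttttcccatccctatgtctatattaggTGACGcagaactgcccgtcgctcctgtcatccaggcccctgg
Actc1, chr2:114052876-114053125, minus strand: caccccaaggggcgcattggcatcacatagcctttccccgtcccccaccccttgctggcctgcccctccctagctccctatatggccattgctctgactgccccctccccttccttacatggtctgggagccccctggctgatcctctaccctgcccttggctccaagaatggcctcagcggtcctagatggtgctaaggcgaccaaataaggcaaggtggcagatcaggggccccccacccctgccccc
Slc8a1, chr17:81738388-81738637, minus strand: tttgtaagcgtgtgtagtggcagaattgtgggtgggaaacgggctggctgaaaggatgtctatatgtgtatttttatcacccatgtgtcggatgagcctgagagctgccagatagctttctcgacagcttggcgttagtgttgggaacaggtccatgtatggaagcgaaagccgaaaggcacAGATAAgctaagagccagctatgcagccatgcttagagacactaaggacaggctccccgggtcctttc
The words searched, on both strands, were AGATAA for the zinc finger family of Gata4, GGAATG for the TEAD family, AAGGTCA for the estrogen-related receptors, TGACG for the core of the cAMP response element and TGANTCA for AP-1, and none of these words contains another. Nkx2-5 held TGACG, Slc8a1 held AGATAA, and Actc1 held none of them. Over 20085 promoter windows of this length, the shares with a match were 8.72%, 11.5%, 3.60%, 20.5% and 6.18% in the same order. Over the 2534 windows of genes nearest to an intergenic region they were 6.83%, 11.3%, 4.03%, 23.0% and 5.49%. A match is a string of letters and says nothing of binding.

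The genes with the most regions were not heart genes. Gm15319 was nearest to 59, Gm40469 to 52, 4930467E23Rik to 50, Speer4d to 48, Gm21119 to 35, Gm21149 to 25, Speer4c to 23, Gm40363 to 22, Frmd8 to 21 and Gm17019 to 20. Apart from Frmd8, the neighbour of Neat1, these are predicted or little studied genes on chromosomes 5, 6 and 8, and the Speer genes are a family of similar copies, so peaks there are uncertain where reads fit several copies. Of 52 regions between Speer4d and Speer4c, 36, 48 and 35 were called in the WT lists and 36, 8 and 24 in the HOM lists. Of 34 between Gm40363 and Pdia4, 25, 30 and 31 had one in WT and 27, 15 and 22 in HOM. Both clusters held peaks of HOM replicate 2, and in both most regions were called in WT replicate 1, one of the shorter lists.

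Peaks of HOM replicate 2, the shortest list, fell on 237 intergenic regions (3.58%), beside 1.96% of all recurrent regions. Its peaks in them had a median width of 79 bp, against 236 to 461 bp in the other libraries. Of 740 regions whose nearest gene had a Gm, Rik, Speer, AI or BC symbol, 13.5% had a peak in it, against 2.33% of 5884 regions near other genes. In the other libraries the regions it touched ranked high. The median percentile of their highest peak was 93.4, 84.1 and 81.2 in WT, against 90.4 and 92.6 for HOM replicates 1 and 3. Without its peak, regions stood at 55.6, 57.5 and 72.9 in WT and 61.4 and 61.8 in HOM. What part the copied genes have in this was not tested.

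Among regions with a peak in all 6 libraries, the 10 leading ones measured 412 to 4851 bp. The top one, 625 bp near Rpusd4 (chr9:35305088-35305712), had an authors' fold of 131, 123 and 133 in WT and 115, 70.6 and 119 in HOM. Regions near Ly6c2, Mrgprd, Fam107a and Tmem196 followed, with folds of 24.6 to 56.9 in the WT libraries. All 10 leading regions stood above the 99.7 percentile in the 5 libraries other than HOM replicate 2, and none was nearest to a gene of the heart lists. No list of sites with spurious high signal was applied here, so whether these folds reflect acetylation was not tested. Of regions with a peak in every library but HOM replicate 2, which were looked at after the values were seen, the first was 7724 bp wide and lay 1643 bp from Slc4a1ap. Its fold was 7.66, 12.9 and 16.6 in WT, against 11.3 and 8.83 for HOM replicates 1 and 3. These folds were far below that of the Rpusd4 region.

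The 2 widest regions lay beside genes of calcium handling. The first, 13079 bp (chr5:122517941-122531019), lay between Atp2a2 and Ift81, nearest to Ift81 at 9245 bp, and had a peak in all 6 libraries. Its highest fold reached 9.28, 12.5 and 17.0 in the WT lists, against 9.43, 7.06 and 8.83 in the HOM lists. The next, 12006 bp, lay 16798 bp on the 5′ side of Ryr2, the calcium release channel, and was called in 5 libraries with folds of 6.86, 9.67 and 15.2 in WT, against 9.43 and 7.15 for HOM replicates 1 and 3. A region of 10730 bp lay near Kcnk3, a potassium leak channel, one of 8988 bp near Slc25a36, a mitochondrial nucleotide carrier, and one of 8878 bp near Anxa5, a phospholipid-binding protein. The 5 were singled out after their widths were seen.

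The genotypes were compared by shares and ranks, since list lengths differ. Intergenic regions made up 16.6, 14.9 and 14.5% of the recurrent regions with a peak in WT replicates 1 to 3, against 14.9, 26.9 and 17.6% for HOM replicates 1 to 3. The means were 15.3 ± 1.12% and 19.8 ± 6.28% (SD, n = 3 each), so HOM lay 4.50 points above WT (two-sided exact permutation p = 0.2, adjusted to 0.4 over 2 comparisons). Without HOM replicate 2, which had the highest share, the difference was 0.96 points. The median fold percentile averaged 62.0 ± 9.51 over the WT libraries and 55.0 ± 7.74 over the HOM libraries (SD, n = 3 each), so HOM minus WT was -7.00 (exact permutation p = 0.5, adjusted to 0.5). With every list limited to the shortest it was 1.60, and over 5 libraries at equal length 1.77. Groups overlapped in both measures. With the mean percentile, an alternative chosen after seeing the data, they did not. The mean percentile was 53.4, 55.5 and 65.2 in the WT lists and 52.9, 50.9 and 52.5 in the HOM lists. The difference was -5.95 (exact permutation p = 0.1, adjusted 0.2), and it was not computed at equal list length. The nearest values, those of WT replicate 1 and HOM replicate 1, lay close together, and 3 libraries against 3 cannot give a two-sided p under 0.1.

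Few regions separated the genotypes. A peak in all 3 WT and 0 HOM libraries was found for 179 regions (2.70%), beside 2.61% of all recurrent regions. The reverse held for 1, a region of 296 bp near Gm40363, beside 0.00222%. Without HOM replicate 2 the counts were 184 and 6 of 6617 regions, and with the other 5 lists at equal length 75 and 42 of 2201. In both settings the HOM pattern needed 2 libraries and the WT pattern 3. The count for the remaining WT libraries alone was 2411 of 6520 without WT replicate 1 and 288 of 4506 without WT replicate 2. It was 286 of 4720 without WT replicate 3 and 763 of 6149 without HOM replicate 1. Shares of all recurrent regions were not computed for these settings, so these counts have no background beside them. No HOM library had a peak in 2534 regions (38.3%, beside 40.0%) and no WT library in 8 (0.121%, beside 0.06%). Among the 179, the leading regions by rank were 225 bp near Gm42372, 753 bp near Mat2a, the enzyme that makes S-adenosylmethionine, and 1379 bp at 16886 bp on the 5′ side of Actc1. The Actc1 region had folds of 6.05, 6.04 and 8.07 in the WT libraries.

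Next to the deleted genes, 6 intergenic regions lay between 2510039O18Rik and Nppb. Of the 5 farther from Nppb, the widest measured 3992 bp, 15799 bp on the 5′ side of Nppb. It had a peak in 5 libraries, with folds of 5.24, 8.46 and 13.9 in WT, against 8.30 and 5.46 for HOM replicates 1 and 3. The sixth, 783 bp (chr4:147981545-147982327), lay 3458 bp on the 5′ side of Nppb. HOM replicates 1 and 3 had a peak there, with folds of 6.04 and 5.04, and no WT library did. It was 1 of the 8 regions without a WT peak. How far it lies from the deletion is not known here, since no label states where that starts and stops.

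The limits of distance left these regions on either side. At the lower limit of 1 kb, a region at 1005 bp from Nudt3 was kept, and regions at 999 bp from Hes1 and 997 bp from Lbhd2 were not. At the upper limit of 50 kb, regions at 49925 bp from Adamts15 and 49924 bp from Gm15319 were kept, and those at 50010 bp from Ctla4 and 50023 bp from Hs3st3b1 were not.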

How the data were processed

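H3K27ac CUT&RUN peak lists of 6 libraries, 3 per genotype by sample title, were used. Per the submitters' processing notes, BWA and MACS2 were used with build mm10 (no versions stated). For each peak the deposited lists give the authors' score, a fold enrichment, a −log10 p-value and a −log10 q-value, called for each library separately. Fold was ranked only within a list (column 7, percentile among peaks of chromosomes 1 to 19, mean rank for ties). The score ranked peaks where lists were shortened, with ties broken at random.

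Peaks sharing a base were merged, and the 20665 protein-coding genes were those that RefSeq lists for GRCm38.p6, which is mm10. 183 of 184 listed symbols matched. The members and lists were chosen with earlier results of these data known. Class differences used exact sign flips over 6 libraries, genotype differences exact permutations, with Benjamini-Hochberg adjustment and 0.5 added to counts in density ratios. Named genes were the 3 of each list and the 10 overall nearest to the most regions, and the regions in most libraries. A few genes and 1 cluster that these rules name are not reported here. Merging and classes were tested on 20 simulated sets (4177 regions, 0 mismatches). No 2 lists shared more than 4 identical peaks. Same-numbered libraries of the genotypes were not treated as pairs. Python 3.11.15, pandas 2.3.3, numpy 2.4.6, scipy 1.17.1 and matplotlib 3.10.9 were used.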

Additional observations from a re-analysis of the deposited data

How the results depend on the processing

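Under other settings, 213 values did not turn direction and kept their side of the threshold, or stayed close. Another 35 moved further, and 17 turned direction, 1 of them past the threshold (the density ratio with lists limited to the shortest). A further 1 passed the threshold in the same direction. A −log10 q of at least 5 left 2888 regions near 1548 genes, with median width 1087.5 bp and gap 1540 bp, 61 regions in WT alone and 0 in HOM alone (1 in the full lists). It gave a width difference from gene-end regions of -0.021 (log2) and a density ratio of -0.085 (log2). The 50% stronger peaks gave 3805 regions, a gap of 1134.5 bp, 0 in HOM alone and a width difference of -0.043. Lists limited to the shortest gave 296 regions near 236 genes, width 1360 bp, gap 2821 bp, 5 regions in WT alone, a width difference of -0.38, a fold percentile difference between genotypes of 1.60 and a density ratio of -0.38. The 5 libraries at equal length gave 2201 regions near 1226 genes, width 1209 bp, gap 1773 bp, 75 and 42 regions in WT or HOM alone, a percentile difference of 1.77 and a density ratio of -0.019. At least 3 libraries left 3609 regions, width 991 bp and gap 964.5 bp. With peaks within 100 bp merged the gap was 1196.5 bp, and the width differences from gene-end and intragenic regions were -0.0021 and 0.0078. The latter was 0.022 beyond 2 kb and 0.0034 up to 100 kb. With no RefSeq gene of any type, the width difference from gene-end regions was -0.036 and the density ratio 0.30 (exact permutation p = 0.031). For that ratio noncoding genes were taken out of the regions but not out of the sequence available. Leaving out regions with a HOM replicate 2 peak, an alternative chosen after seeing the data, gave 5 regions in HOM replicates 1 and 3 alone, and differences from gene-end regions of -0.93 percentile points and -0.029 in log2 width. The percentile difference from regions beyond 50 kb was then 0, which is counted among the 213 values. Shares of all recurrent regions were not computed under these settings or with a library left out. The counts of regions in WT or HOM alone therefore have no background beside them. The cause of these changes was not tested.

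Leaving out each library in turn gave 4506 to 6617 regions. Regions in all remaining WT and no HOM libraries numbered 184 to 2411, and in all remaining HOM and no WT libraries 2 to 6. The width difference from gene-end regions ran from -0.022 to 0.052. With the replicate number as a block, the genotype differences were 4.50 points (exact permutation p = 0.5) and -7.00 (p = 0.25, the smallest that 3 pairs can give). The deviations of same-numbered libraries correlated at 0.188, 0.277 and -0.234, and those of other pairs at -0.391 to 0.243. The labels state no pairs, and so few correlations cannot settle whether the numbers pair the libraries. Depth is unknown, and the number of peaks in a list limits what its absence from a region can show.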

Other observations

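Clusters of intergenic regions, chosen here after their values were seen, also lay beside other genes of muscle. Each had 8 or 9 regions. Beside Myot, which encodes the Z-disc protein myotilin, 8 regions had a peak in 7, 8 and 8 cases in WT replicates 1, 2 and 3 and in 7, 0 and 4 in HOM replicates 1, 2 and 3. Beside Tead1, a factor that binds with YAP, 8 regions had 6, 8 and 8 in WT and 7, 1 and 2 in HOM. Beside Klhl31, a kelch protein of muscle, 8 regions had 4, 8 and 7 in WT and 5, 0 and 3 in HOM. Between Pdik1l and Trim63, a ubiquitin ligase of the sarcomere, 9 regions had 1, 9 and 9 in WT and 4, 0 and 2 in HOM. Beside Pkp2, a desmosome protein of the intercalated disc, 8 regions had 1, 5 and 8 in WT and 5, 0 and 0 in HOM. WT replicate 3 called all regions of 4 of these 5 clusters and HOM replicate 2 called 1 region in all.

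Beside Csnk1a1, 8 regions lay in a cluster of which 5 overlapped noncoding genes, among them Carmn, a long noncoding RNA of smooth muscle and heart. They had a peak in 4, 6 and 8 cases in WT and 5, 0 and 3 in HOM. Airn, the antisense transcript of Igf2r, held 10 regions, with 3, 9 and 10 in WT and 5, 0 and 2 in HOM.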
